A study of Mus musculus with 8 samples.

Results

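HO2 was knocked down in primary hepatocytes of HO1-/- mice, and the transcriptome of these cells was compared with that of HO1-/- hepatocytes carrying a scrambled hairpin. The comparison rests on 4 of the 8 arrays of the study: 2 labelled HO1 ko/HO2 kd and 2 labelled HO1 ko. It was read across 19937 genes, each represented by the brightest of its probe sets with a single gene symbol. The other 4 arrays held HO1+/+ hepatocytes, 2 with the scrambled hairpin and 2 with the HO2 hairpin. They were used to ask whether the response to HO2 shRNA differed between the genotypes. They also entered the estimate of each gene's spread.

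All cells came from livers of male BALB/c mice, whose age is not given in the sources used here. Every culture, controls included, was transduced with a pLKO.1 lentivirus, moved after 24 h to medium with puromycin and, 3 days on, synchronised by a 30 min pulse of dexamethasone at 1 µM; RNA was collected 28 h later. Dexamethasone is a synthetic glucocorticoid that resets the circadian clock of cultured cells, so each array is a single time point after such a reset. The scrambled groups are therefore infected, selected and glucocorticoid-treated cells, and not untreated hepatocytes. HO2 was targeted with 1 hairpin, so any other effect of that hairpin is part of the comparison. Replicates are called biological in the labels, but nothing says that different animals or dishes gave them; a p-value here reflects no more than how far these arrays differ, which may be technical. Cell preparation and genotype cannot be told apart.

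Heme oxygenases open the heme ring and release iron, carbon monoxide and biliverdin, which biliverdin reductase turns into bilirubin. HO1, encoded by Hmox1, is induced by heme and by oxidative stress, whereas HO2, encoded by Hmox2, is expressed constitutively in most tissues. Heme is also the ligand or cofactor of regulators of liver metabolism and of the circadian clock, among them the nuclear receptors REV-ERB alpha and beta (Nr1d1 and Nr1d2). By their labels, HO1-/- cells with the HO2 hairpin combine the lack of the inducible enzyme with a reduction of the constitutive one.

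Median signals of the 8 arrays lay within 0.1 log2 units of each other, and the number of arrays, not their signal, limits the precision. Replicates correlated at r = 0.998 in the scrambled and 0.999 in the HO2 shRNA group of HO1-/- cells over all genes, against 0.988 to 0.989 between these groups. Hepatocyte markers were well expressed: albumin (Alb) read 13.39 and 13.36 log2 units on the HO1-/- scrambled arrays and transthyretin (Ttr) 12.95 and 12.97. The arrays also carried markers of other cells. The 16 Kupffer cell and macrophage markers averaged 9.74 and 9.72 on the HO1-/- scrambled and 9.57 and 9.61 on the HO1-/- HO2 shRNA arrays, against 7.65 and 7.62 on the HO1+/+ scrambled and 7.51 and 7.61 on the HO1+/+ HO2 shRNA arrays. Lyz2, Cd68 and Csf1r were all higher on every HO1-/- array than on any HO1+/+ array, while Marco, Timd4 and Clec4f, which mark resident Kupffer cells, read 6.49 to 7.73 on the HO1-/- arrays. Of 10 neutrophil markers 6, and of 9 lymphocyte markers 6, lay on all 4 HO1-/- arrays below 6.77 log2 units, the upper limit of the dimmest 25% of genes. The HO1-/- arrays thus carried macrophage as well as hepatocyte RNA, and in such bulk samples fewer cells of a type and less RNA per cell cannot be told apart.

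The hairpin lowered its target. Hmox2 read 11.59 and 11.60 log2 units on the scrambled and 9.26 and 9.32 on the HO2 shRNA arrays of HO1-/- cells. The groups lay far apart, and 20.3% of the scrambled signal remained (log2 fold change -2.30, SE 0.065, adjusted p = 7.56e-13). In HO1+/+ cells the fall was -3.14, and the difference between the genotypes of 0.84 passed the test (adjusted p = 3.86e-05), so the knockdown was shallower in the HO1-/- cells. The Hmox1 probe set gave 11.98 and 11.97 on the scrambled and 12.40 and 12.47 on the HO2 shRNA arrays of the HO1-/- cells, a rise of 0.47 (SE 0.046, adjusted p = 1.35e-06). On the HO1+/+ arrays it gave 11.46 and 11.40 with the scrambled and 11.53 and 11.57 with the HO2 hairpin, so that the probe set of the deleted gene read higher in the cells labelled HO1-/- than in those labelled HO1+/+. Which exons the knockout allele lacks is not given in the sources used here, so this signal cannot check the genotype, which is taken from the labels.

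Across all genes tested, 4587 (23%) passed an adjusted p of 0.05, of which 2031 (10.2% of all genes) rose and 2556 (12.8%) fell in the HO2 shRNA arrays. At least 2-fold changes were fewer, with 181 genes higher (0.908%) and 117 lower (0.587%). Leaving out HO1-/- HO2 shRNA replicate 1 reduced the genes that rose to 1343, and leaving out its replicate 2 reduced those that fell to 1681. The median log2 fold change over all genes was 0.01. These shares are the background against which the gene lists are read. The genes with the largest rises were Bhmt, G6pc, the plasma protease inhibitor Mug1 (3.26) and Phf11c (3.20), and those with the largest falls were Cxcl5, Cxcl3 and the MHC class Ib gene H2-M2 (-3.31).

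**Figure D1:**
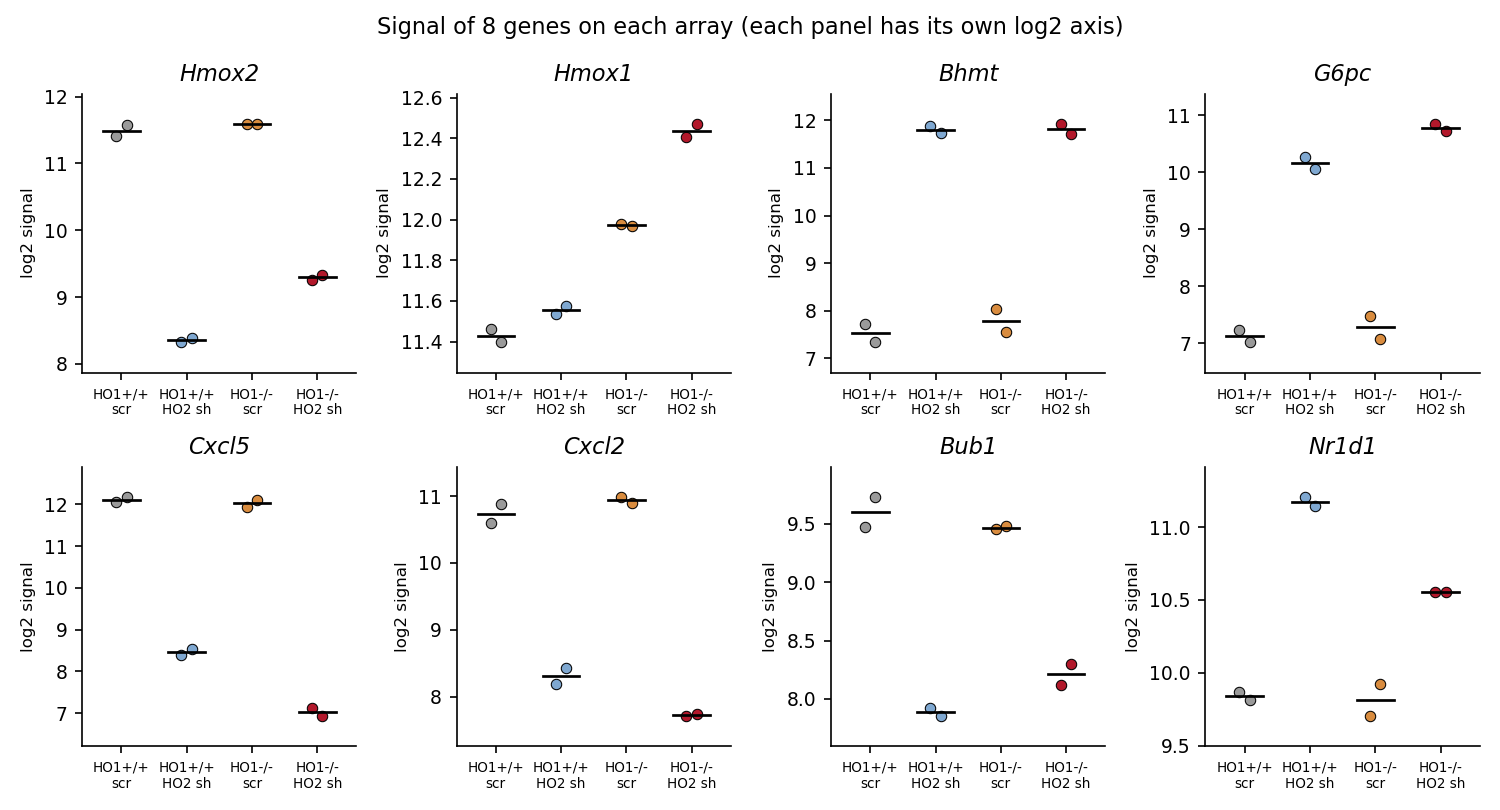
Log2 signal of 8 genes (1 panel each, with its own y axis in log2 units) on each of the 8 arrays; points are single arrays, lines are the means of the 2 arrays of a group, and scr and HO2 sh stand for the scrambled and the HO2 hairpin. In the HO1-/- groups Hmox2, Cxcl5, Cxcl2 and Bub1 are lower and Bhmt, G6pc, Hmox1 and Nr1d1 higher with the HO2 hairpin. The arrays of these groups do not overlap for any of the 8 genes, nor do they in 59.8% of all genes.

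Outside the oxygenases, log2 changes in the heme pathway were small in HO1-/- cells. Biliverdin reductase B (Blvrb) fell by 0.42 on the log2 scale, and biliverdin reductase A (Blvra) gave -0.14 (adjusted p = 0.254). None of the 7 measured genes of heme synthesis passed the test in limma, against 23% of all genes. Their log2 fold changes ran from -0.15 to 0.18. An unadjusted p under 0.05 was found for 2 of the 7 and for 31.7% of all genes, so these counts do not set the list apart. The rate-limiting enzyme Alas1 read 11.52 on both scrambled and 11.60 and 11.54 on the HO2 shRNA arrays, so its groups lay close together. In HO1+/+ cells, where 33.2% of all genes passed, 3 of the 7 rose and 2 fell. The response differed between the genotypes for Fech (difference -0.52), Alas1 (-0.32) and Alad (0.43). Of 13 iron genes, 1 rose and 6 fell in HO1-/- cells, against 10.2% and 12.8% of all genes. Ferroportin (Slc40a1), the cell's iron exporter, read 10.74 and 10.65 on the scrambled and 11.96 and 11.94 on the HO2 shRNA arrays, a 2.39-fold rise (log2 1.26, SE 0.054, adjusted p = 9.28e-11). Transferrin receptor 1 (Tfrc), which imports iron, read 9.98 and 9.83 on the scrambled and 9.27 and 9.33 on the HO2 shRNA arrays (-0.60, SE 0.074, adjusted p = 1.35e-05). The importer of ferrous iron Slc11a2 fell by 0.47 and hepcidin (Hamp), the hormone that degrades ferroportin, fell by 0.34. The exporter was thus higher and both importers lower on either HO2 shRNA array than on any scrambled one, as the arrays of the 2 groups did not overlap in 59.8% of all genes. The change differed between the genotypes for Slc40a1 (difference 0.62), Tfrc (-0.45), Slc11a2 (-0.59) and Hamp (-0.62). In HO1+/+ cells Hamp rose by 0.28 and Slc40a1 by 0.64. Over all genes tested, a lower response in HO1-/- than in HO1+/+ cells passed the test in 7.57% and a higher one in 4.67%. Over the iron list 5 genes had a lower response in HO1-/- cells, or 3 without HO1-/- scrambled replicate 1, HO1+/+ HO2 shRNA replicate 1 or HO1-/- HO2 shRNA replicate 1. Of 8 heme-responsive regulators and enzymes 2 rose, Nr1d1 and the heme-containing cystathionine beta-synthase (Cbs, 1.05), and the heme-binding repressor Bach1 gave -0.07.

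Genes of the differentiated hepatocyte rose in large numbers. Of 20 genes for secreted proteins and hepatocyte identity, 16 rose and 0 fell, with a list median of 0.84 against 0.01 over all genes. Plasminogen (Plg), the precursor of the fibrin-dissolving protease, read 8.16 and 8.37 on the scrambled and 11.46 and 11.41 on the HO2 shRNA arrays (a log2 rise of 3.17, SE 0.084, adjusted p = 4.46e-13). Apolipoprotein A-II (Apoa2), a component of HDL, went from 8.51 and 8.44 to 11.31 and 11.30 (log2 2.83, adjusted p = 2.49e-13). Both genes lay on the HO2 shRNA arrays far above either scrambled array. Apoa1 rose by 2.30, histidine-rich glycoprotein (Hrg) by 2.57, and albumin, already near the top of the scale, by 0.58. The 4 members that did not pass were Hpx, Apob, F9 and Ambp, with fold changes from -0.04 to 0.04. Clotting factors followed the same course: of 20 coagulation and fibrinolysis genes 12 rose and 2 fell, with F12 at 1.40, the plasmin inhibitor Serpinf2 at 2.02 and antithrombin (Serpinc1) at 1.03, whereas tissue plasminogen activator (Plat) fell by 0.52. Complement genes were divided, with 8 of 21 higher and 7 lower, or 5 higher without HO1-/- scrambled replicate 1 or either HO1-/- HO2 shRNA array.

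Amino acid and glucose metabolism held the largest single increases. Bhmt, which remethylates homocysteine with betaine, read 8.03 and 7.54 on the scrambled and 11.93 and 11.71 on the HO2 shRNA arrays, 16.4-fold higher (log2 4.04, SE 0.14, adjusted p = 5.87e-12). Its scrambled replicates differed from each other by far less than the groups did. In the list of urea cycle and amino acid breakdown 15 of 18 genes rose and 1 fell (median 0.88). Cps1, the first enzyme of the urea cycle, rose by 2.31, the tyrosine-degrading enzymes Tat and Hpd by 1.84 and 2.66, and the tryptophan-degrading Tdo2 by 1.83. The gene that fell was Arg1, the last enzyme of the urea cycle and also a product of macrophages, at -1.48. Of 8 genes of gluconeogenesis and glycogen 5 rose and 1 fell (median 0.83). Glucose-6-phosphatase (G6pc), the final step of glucose release, read 7.48 and 7.08 on the scrambled and 10.85 and 10.72 on the HO2 shRNA arrays, 11.3-fold higher (log2 3.50, SE 0.12, adjusted p = 6.58e-12). Pck1 rose by 1.87 and the glucose-6-phosphate transporter Slc37a4 by 1.08, while fructose-1,6-bisphosphatase (Fbp1) fell by 0.36, a call lost without HO1-/- scrambled replicate 2 or HO1-/- HO2 shRNA replicate 2. Genes of glycolysis moved the other way, with 0 of 14 higher and 8 lower, among them Pfkl (-0.77), the lactate exporter Slc16a3 (-0.77), Hk2 (-0.54) and Ldha (-0.24).

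Drug and bile acid metabolism rose together with these lists. Of 15 drug-metabolising cytochromes P450, 11 rose and 0 fell, with a median of 1.10. Cyp3a11 read 6.05 and 5.94 on the scrambled and 8.96 and 9.32 on the HO2 shRNA arrays (log2 3.14, SE 0.14, adjusted p = 1.75e-10). Cyp2b10, a target of the xenobiotic receptor CAR (Nr1i3), rose by 2.59, Cyp2d9 by 1.45 and Cyp1a2 by 1.10. The scrambled readings of Cyp3a11, like those of Cyp7a1, Fabp1, Cyp4a10, Cyp4a31, H2-Aa and Vsig4 given elsewhere, lie below 6.77 and may be near background, so the size of such rises is uncertain. Probe sets of close P450 relatives can share signal, so the values of Cyp3a, Cyp2c and Cyp2d members are uncertain as single genes. Of 13 conjugation enzymes 8 rose and 1 fell. In the bile acid list 9 of 14 genes rose and 1 fell: the uptake transporter Slc10a1 rose by 1.98, the phospholipid exporter Abcb4 by 1.77 and the conjugating enzyme Baat by 1.47, and Hsd3b7, an enzyme of bile acid synthesis, fell by 0.61. Cyp7a1, the rate-limiting enzyme of bile acid synthesis, read 5.45 and 5.44 on the scrambled arrays, near the dim end of the scale, and 7.23 and 7.06 on the HO2 shRNA arrays. Its rise of 1.70 (SE 0.099, adjusted p = 3.77e-09) exceeded the 0.64 of HO1+/+ cells, with a difference of 1.06 (SE 0.14, adjusted p = 0.000173).

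Several regulators of these programmes rose as well. Of 14 liver transcription factors 9 rose and 1 fell. The nuclear receptor Hnf4a, a master regulator of hepatocyte genes, rose by 0.46, Onecut1 by 1.10, Prox1 by 0.85, Ppara by 0.80, the xenobiotic receptor Nr1i2 (PXR) by 0.78 and the bile acid-induced repressor Nr0b2 (SHP) by 1.62. Cebpb, a factor of the acute phase response, was the one that fell, at -0.38. Among all genes tested, 7.57% had a lower response in HO1-/- than in HO1+/+ cells. For 8 of the 14 the response was lower in HO1-/- than in HO1+/+ cells, among them Nr1i2 with a difference of -0.84; without HO1-/- scrambled replicate 2 or HO1-/- HO2 shRNA replicate 1 the count was 3. Known targets of the glucocorticoid receptor, relevant because every culture had received dexamethasone, counted 10 higher and 2 lower of 17, with Igfbp1 at 1.43, Tsc22d3 at 0.66 and Fkbp5 at 0.58, whereas the receptor gene Nr3c1 gave -0.12 (adjusted p = 0.251).

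Lipid genes were divided. Of 20 fatty acid oxidation genes and PPARA targets 9 rose and 1 fell, but the median was 0.13. The fatty acid binding protein Fabp1 rose by 1.73, Cyp4a10 by 1.20 and the pyruvate dehydrogenase kinase Pdk4 by 0.98. The beta-oxidation enzymes Acadl, Acadvl, Acaa2 and Hadhb did not pass the test, with fold changes from -0.04 to 0.10. A lower response in HO1-/- than in HO1+/+ cells passed in 7.57% of all genes. In 8 of the 20 the response was smaller in HO1-/- than in HO1+/+ cells, for example in the peroxisomal enzyme Ehhadh with 0.44 against 1.51 (difference -1.07, SE 0.10, adjusted p = 9.84e-06); without HO1+/+ HO2 shRNA replicate 1, 3 members differed. Sterol synthesis fell, with 0 of 14 genes higher and 9 lower (median -0.39). Its regulator Srebf2 fell by 0.67, and Dhcr7, which makes cholesterol in the last step of one branch, went from 9.38 and 9.43 to 8.72 and 8.66 (-0.71, SE 0.071, adjusted p = 1.45e-06). Respiratory chain genes counted 4 higher and 1 lower of 20, with changes from -0.28 to 0.21, and the other 15 stayed short of the threshold. Over all genes 10.2% were higher and 12.8% lower, so this list was not set apart by how few of its members changed.

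**Figure D2:**
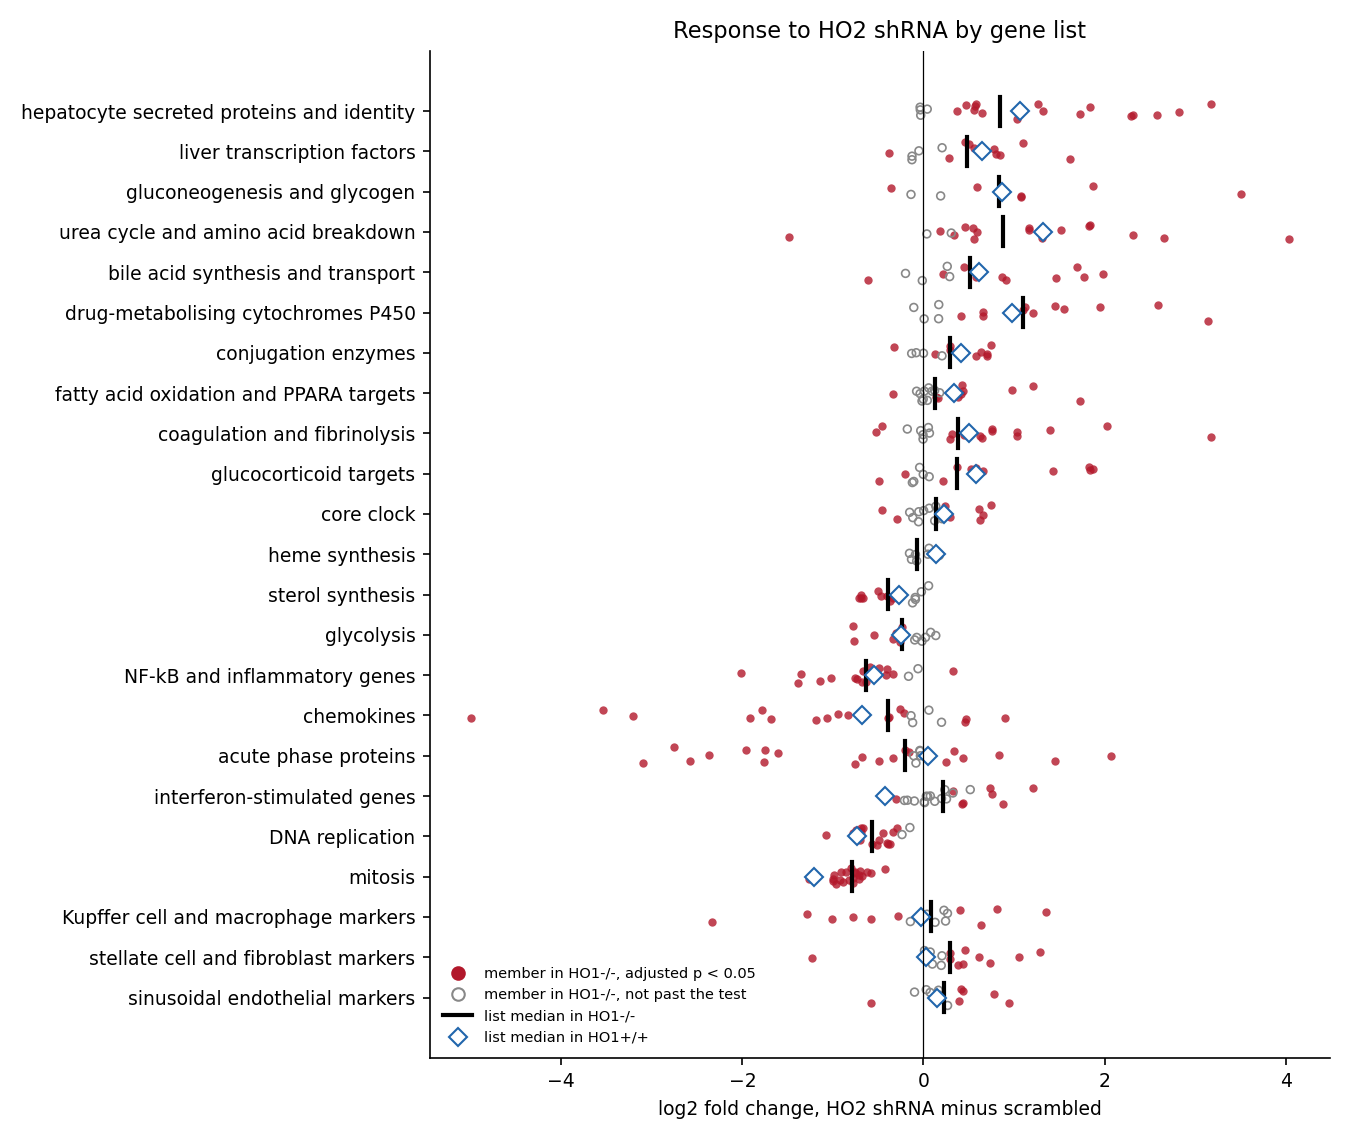
Log2 fold change of HO2 shRNA minus scrambled (x axis) for the members of 23 gene lists (y axis); filled points are members past adjusted p 0.05 in HO1-/- cells, open points are members that did not pass, black bars are list medians in HO1-/- cells and blue diamonds list medians in HO1+/+ cells. Lists of hepatocyte function lie to the right of 0, mitosis and inflammatory genes to the left, and acute phase proteins spread from -3.09 to 2.07.

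Inflammatory genes fell, and chemokines held the largest decreases of the whole comparison. Chemokines are small secreted proteins that attract leukocytes, and the CXC chemokines Cxcl1, Cxcl2, Cxcl3 and Cxcl5 act on neutrophils through the receptor CXCR2. The genes of many of them are activated by NF-kB, which binds the kappaB motif. Promoter windows of 250 bases before to 50 bases after the start site, from the RefSeq table of build GRCm38.p6, were read for 13 of the 21 chemokine genes, and 6 of the 13 (46.2%) held a kappaB match on either strand, against 11% of the 15562 genes with a window. The windows of the 2 chemokines with such a match that fell most are shown with the match in capitals. In both, a pair of overlapping matches on opposite strands shares 1 stretch of the same letters, less than 100 bases before the start site. Cxcl2 lies at chr5:90903649-90903948 on the plus strand and Cxcl3 at chr5:90785851-90786150 on the plus strand.
Cxcl2: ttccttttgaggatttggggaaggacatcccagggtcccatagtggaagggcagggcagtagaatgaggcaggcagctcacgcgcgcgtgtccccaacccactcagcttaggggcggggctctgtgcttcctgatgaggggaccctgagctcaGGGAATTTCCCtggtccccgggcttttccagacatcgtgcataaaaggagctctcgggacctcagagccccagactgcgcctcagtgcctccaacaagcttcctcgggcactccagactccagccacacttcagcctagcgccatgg
Cxcl3: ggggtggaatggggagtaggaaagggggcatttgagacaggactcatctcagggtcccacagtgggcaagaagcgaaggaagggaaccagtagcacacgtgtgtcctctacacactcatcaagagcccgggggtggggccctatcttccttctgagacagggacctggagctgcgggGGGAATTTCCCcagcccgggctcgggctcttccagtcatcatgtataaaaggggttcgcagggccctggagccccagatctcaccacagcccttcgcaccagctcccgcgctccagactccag
A match is a description of letters and not a measured binding site.

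Cxcl5 read 11.94 and 12.11 on the HO1-/- scrambled arrays and 7.12 and 6.93 on the HO2 shRNA arrays, a 31.9-fold decrease (log2 -5.00, SE 0.083, adjusted p = 3.16e-15). Cxcl3 went from 10.35 and 10.46 to 7.09 and 6.65 (-3.54, SE 0.12, adjusted p = 4.61e-12). Cxcl2 went from 10.98 and 10.89 to 7.71 and 7.74 (-3.21, SE 0.095, adjusted p = 1.33e-12). For each of these genes the scrambled arrays lay at least 3 log2 units above the HO2 shRNA arrays, while replicates differed by less than 0.5. Cxcl1, a close relative whose probes may share signal with Cxcl2 and Cxcl3, fell by 1.79. In the whole list 14 of 21 chemokines fell and 3 rose (median -0.39). The monocyte attractants Ccl7 and Ccl2 fell by 1.92 and 1.19, and Ccl20, which attracts lymphocytes and dendritic cells, by 1.69. The 3 that rose were Cxcl12 (0.90), Cxcl13 and Cxcl17, reduced to 1 without HO1-/- scrambled replicate 1. In HO1+/+ cells the list median was -0.67. The response was higher in HO1-/- than in HO1+/+ cells for 9 of the 21 and lower for 6, against 4.67% and 7.57% of all genes. The fall was larger in HO1-/- than in HO1+/+ cells for Cxcl5 (difference -1.34, SE 0.12, adjusted p = 3.09e-06) and Cxcl2 (-0.78, adjusted p = 0.0014). It was smaller for Ccl20 (0.98) and Ccl7 (0.30). Cxcl3 gave a difference of -0.48 that did not pass (adjusted p = 0.0695).

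Of 19 further NF-kB and inflammatory genes 16 fell and 1 rose (median -0.64). Inducible nitric oxide synthase (Nos2), whose product contains heme, read 9.32 and 9.26 on the scrambled and 7.45 and 7.09 on the HO2 shRNA arrays (-2.02, SE 0.12, adjusted p = 4.76e-09). Il1a fell by 1.38, Csf2 by 1.35, the adhesion molecules Vcam1 and Icam1 by 1.14 and 0.59, and Tnf by 0.64. The feedback inhibitors of the pathway fell with them, Tnfaip3 by 1.02 and Nfkbia by 0.60. Cyclooxygenase 2 (Ptgs2), which makes prostaglandins, moved against the list, from 10.70 and 10.55 to 11.03 and 10.87 (0.32, SE 0.067, adjusted p = 0.0018). In HO1+/+ cells Ptgs2 fell by 0.51, and the difference of 0.83 passed the test (adjusted p = 5.43e-05). Other stress programmes had list medians nearer 0, at -0.05 for NRF2 targets and antioxidant enzymes, 0.08 for the integrated stress and unfolded protein response and -0.03 for p53 targets. Their counts stand against 10.2% of all genes higher and 12.8% lower. Of 17 NRF2 targets and antioxidant enzymes 6 fell and 3 rose, with the cystine transporter Slc7a11 at -0.80 and mitochondrial superoxide dismutase (Sod2) at -0.53; without any 1 of the 4 HO1-/- arrays 1 gene rose. Of 21 genes of the integrated stress and unfolded protein response 6 rose and 3 fell, with the chaperone Hspa5 at 0.23, or 1 lower without either HO1-/- scrambled array or without HO1-/- HO2 shRNA replicate 1. Of 15 p53 targets 5 rose and 3 fell, within -0.29 and 0.53, or 1 lower without HO1-/- scrambled replicate 1 or HO1-/- HO2 shRNA replicate 2.

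Acute phase proteins, which the liver secretes during inflammation, split by kind. Of 25 genes 14 fell and 6 rose. Serum amyloid A3 (Saa3) read 12.90 and 12.81 on the HO1-/- scrambled and 9.63 and 9.90 on the HO2 shRNA arrays (-3.09, SE 0.087, adjusted p = 7.56e-13). Orosomucoid 2 (Orm2), a plasma carrier protein, went from 10.84 and 10.87 to 8.09 and 8.11 (-2.76, SE 0.077, adjusted p = 7.54e-13). The metalloreductase Steap4 fell by 2.58, Saa4 by 1.75, haptoglobin (Hp) by 0.75 and lipocalin 2 (Lcn2) by 0.49. Saa1 and Saa2, and Orm1 to Orm3, are near-identical genes, so their separate values are uncertain, although each fell by 1.60 or more. The 6 that rose were the fibrinogen chains Fga, Fgb and Fgg, the inter-alpha-trypsin inhibitor chains Itih3 and Itih4, and Crp, from 0.25 for Fgb to 2.07 for Itih3. The STAT motif TTCNNNGAA, searched in the promoter windows because the response is driven through STAT3, lay in 6 of 22 acute phase genes with a window (27.3%) and in 9.01% of all genes. The 6 were Itih4, Fga and Fgb, which rose, Steap4 and Hamp, which fell, and Apcs, which did not pass. No match lay in the windows of Saa1 to Saa4, Orm2 and Orm3, which fell.

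For this list the response to HO2 shRNA differed between the cells labelled HO1-/- and HO1+/+. Genotype, cell preparation and the shallower Hmox2 knockdown in HO1-/- cells cannot be told apart here. In the test of the difference between the genotypes 2442 genes passed (12.2%), of which 932 were higher (4.67%) and 1510 lower (7.57%) in HO1-/- than in HO1+/+ cells, while 21 of the 25 acute phase genes were lower and 0 higher (median difference -0.85, against 0.05 over all genes). Saa4 fell by 1.75 in HO1-/- cells and gave 0.04 in HO1+/+ cells, where its arrays read 10.59 and 10.77 with the scrambled and 10.72 and 10.73 with the HO2 hairpin (difference -1.79, SE 0.093, adjusted p = 1.43e-08). Fgg rose in both genotypes, by 0.83 in HO1-/- and 2.93 in HO1+/+ cells (difference -2.10, SE 0.10, adjusted p = 7.48e-09). Its levels show where that difference lies: 8.80 and 9.04 on the HO1+/+ scrambled arrays, 11.20 and 11.35 on the HO1-/- scrambled arrays, 11.84 and 11.87 on the HO1+/+ HO2 shRNA arrays and 12.08 and 12.13 on the HO1-/- HO2 shRNA arrays. The genotypes were thus far apart with the scrambled and close with the HO2 hairpin. Orm2 read 8.96 and 9.02 on the HO1+/+ scrambled and 7.92 and 8.07 on the HO1+/+ HO2 shRNA arrays, so that the HO1-/- HO2 shRNA arrays, at 8.09 and 8.11, lay next to the latter. Over the whole list the mean level was 10.64 and 10.68 on the HO1+/+ scrambled, 11.58 and 11.53 on the HO1-/- scrambled, at most 11.05 on the HO1+/+ HO2 shRNA and 10.91 and 10.96 on the HO1-/- HO2 shRNA arrays. The macrophage markers, higher on the HO1-/- arrays with either hairpin, moved with the genotype, and their part in these differences was not tested.

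**Figure D3:**
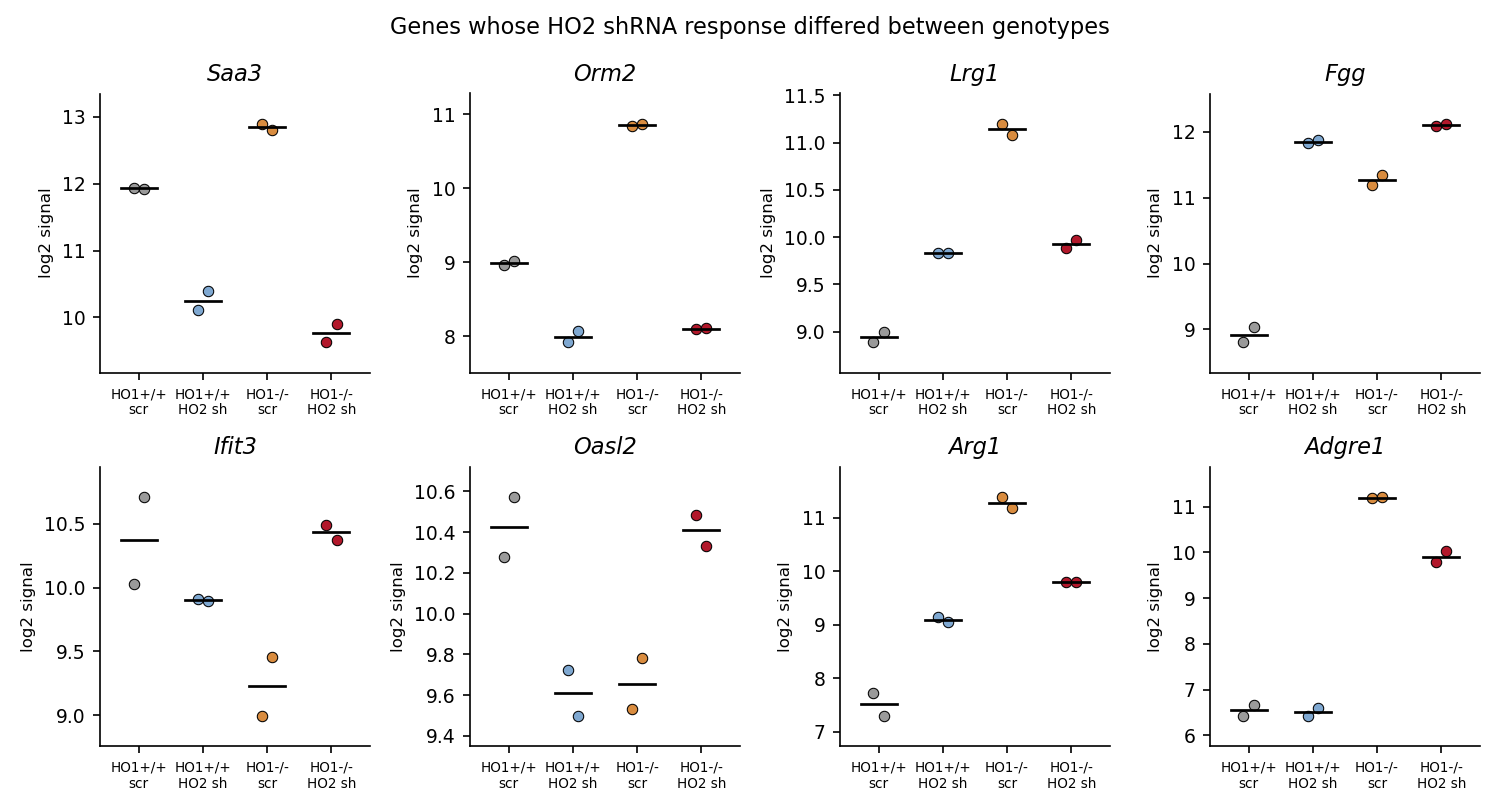
Log2 signal (y axes, 1 scale per panel) of 8 genes whose response to HO2 shRNA differed between the genotypes, on each of the 8 arrays; points are arrays and lines group means. With the scrambled hairpin Saa3, Orm2, Lrg1 and Fgg are higher in HO1-/- than in HO1+/+ cells, and Ifit3 and Oasl2 lower; with the HO2 hairpin the HO1-/- arrays of Lrg1 and Orm2 lie close to the HO1+/+ arrays.

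Interferon-stimulated genes, which carry out the antiviral response, responded differently in the 2 genotypes. In HO1-/- cells 7 of 22 rose and 1 (Isg20, -0.30) fell, with a median of 0.22; 3 fell without either of the HO1+/+ scrambled arrays. In HO1+/+ cells, where 33.2% of all genes passed (16.5% higher and 16.7% lower), 0 of the 22 rose and 17 fell, with a median of -0.42. The difference between the genotypes passed in 15, all higher in HO1-/- cells, and leaving out 1 array at a time gave 11 to 19. Ifit3, an antiviral effector, read 8.99 and 9.46 on the scrambled and 10.49 and 10.38 on the HO2 shRNA arrays of HO1-/- cells (1.21, SE 0.16, adjusted p = 3.35e-05). In HO1+/+ cells it read 10.03 and 10.71 with the scrambled and 9.91 and 9.89 with the HO2 hairpin, and the difference was 1.67 (SE 0.23, adjusted p = 0.000206). Ifit1 rose by 0.88 (SE 0.12, adjusted p = 3.04e-05) and Oasl2 by 0.75 (SE 0.10, adjusted p = 4.32e-05) in HO1-/- cells, whereas they fell by 0.40 and 0.81 in HO1+/+ cells. The regulators Irf7, Irf9 and Stat2 did not pass in HO1-/- cells, at 0.03, 0.01 and -0.21. The replicates of the HO1+/+ scrambled group stood apart here, with list means of 10.03 and 10.34, and those of the HO1-/- scrambled group read 9.67 and 9.78, against 10.04 and 9.94 with the HO2 hairpin. All cultures had been infected with lentivirus, and viral dose was not given in the sources used here.

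Interferon signalling acts through a response element in promoters, searched here on both strands as GAAA, 2 bases of any kind and a second GAAA. It was present in 12 of the 18 interferon-stimulated genes with a window (66.7%) and in 3.89% of all genes with one. The windows of Ifit1, at chr19:34640639-34640938 on the plus strand, and Ifit3, at chr19:34583279-34583578 on the plus strand, are shown because both genes rose in HO1-/- cells and each holds the element 2 times, in capitals, read on the opposite strand.
Ifit1: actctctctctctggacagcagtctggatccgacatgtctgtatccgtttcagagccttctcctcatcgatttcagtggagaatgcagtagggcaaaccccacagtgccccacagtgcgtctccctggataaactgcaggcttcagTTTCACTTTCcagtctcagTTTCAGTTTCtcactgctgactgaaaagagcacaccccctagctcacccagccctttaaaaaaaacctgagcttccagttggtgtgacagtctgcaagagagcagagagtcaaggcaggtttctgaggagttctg
Ifit3: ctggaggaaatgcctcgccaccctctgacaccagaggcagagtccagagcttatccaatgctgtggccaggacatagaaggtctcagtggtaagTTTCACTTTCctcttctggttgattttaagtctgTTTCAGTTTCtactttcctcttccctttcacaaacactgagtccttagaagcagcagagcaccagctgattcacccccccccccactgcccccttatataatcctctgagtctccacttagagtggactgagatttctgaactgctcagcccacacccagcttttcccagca
Oasl2 and Irf7 had no match in their windows, which says no more than that these letters are not there.

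Proliferation genes fell as a group. All 22 measured mitosis genes fell, with a median of -0.79, and 19 of 21 DNA replication genes fell (median -0.56). The checkpoint kinase Bub1 read 9.46 and 9.48 on the scrambled and 8.12 and 8.30 on the HO2 shRNA arrays (-1.26, SE 0.093, adjusted p = 5.50e-08). The ribonucleotide reductase subunit Rrm2, which supplies DNA precursors, went from 10.26 and 9.95 to 9.10 and 8.96 (-1.08, SE 0.094, adjusted p = 3.51e-07). Cyclin B2 (Ccnb2) fell by 0.82, Cdc20 by 0.99, the proliferation marker Mki67 by 0.62 and the replicative helicase subunits Mcm2 to Mcm7 by 0.51 to 0.72. In HO1+/+ cells the same 22 mitosis genes fell, with a median of -1.21, and the fall was smaller in HO1-/- cells in 13 of them. A higher response in HO1-/- cells passed in 4.67% of all genes. Mki67 fell by 1.46 in HO1+/+ cells (difference 0.84, SE 0.088, adjusted p = 2.52e-05). Without either HO1-/- scrambled array or without HO1-/- HO2 shRNA replicate 2 the count was 7. For DNA replication 5 genes differed, or 1 without HO1-/- scrambled replicate 2 or HO1-/- HO2 shRNA replicate 1.

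Many mitosis genes are driven through CCAAT boxes, bound by the factor NF-Y. The letters CCAAT occurred on either strand in 15 of the 18 mitosis genes with a window (83.3%) and in 41.7% of all genes with one. Ccnb2, at chr9:70421505-70421804 on the minus strand, and Bub1, at chr2:127831810-127832109 on the minus strand, are shown for their 3 and 2 matches, in capitals.
Ccnb2: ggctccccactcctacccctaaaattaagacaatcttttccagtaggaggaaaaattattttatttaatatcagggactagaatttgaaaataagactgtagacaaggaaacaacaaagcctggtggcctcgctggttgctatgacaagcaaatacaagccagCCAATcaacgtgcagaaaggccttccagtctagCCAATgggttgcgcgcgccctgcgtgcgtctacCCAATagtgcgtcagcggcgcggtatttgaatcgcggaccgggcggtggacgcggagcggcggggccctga
Bub1: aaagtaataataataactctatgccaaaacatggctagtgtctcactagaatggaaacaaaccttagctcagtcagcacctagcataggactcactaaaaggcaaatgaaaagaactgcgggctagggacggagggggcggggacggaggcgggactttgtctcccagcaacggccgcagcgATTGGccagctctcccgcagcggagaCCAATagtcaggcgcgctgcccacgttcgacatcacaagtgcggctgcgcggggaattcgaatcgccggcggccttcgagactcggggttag
In Ccnb2 the 3 matches share an orientation, and in Bub1 the match farther from the start site is on the opposite strand.

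Changes of circadian clock genes ran from -0.45 to 0.74 on the log2 scale. The background for their counts is the 10.2% of all genes that rose and the 12.8% that fell. The clock is a feedback loop in which CLOCK and BMAL1 (Arntl) activate the Per, Cry, Nr1d and PAR bZIP genes (Dbp, Tef and Hlf) through E-box elements, and the REV-ERB receptors, which bind heme, repress Arntl. Of 19 clock genes 7 rose and 2 fell in HO1-/- cells, with a median of 0.14, and leaving out HO1-/- scrambled replicate 1 or either HO1-/- HO2 shRNA array left 4 that rose. Nr1d1 read 9.71 and 9.92 on the scrambled and 10.56 on both HO2 shRNA arrays (0.74, SE 0.069, adjusted p = 6.29e-07). Cry2 went from 9.16 and 9.15 to 9.89 and 9.75 (0.66, SE 0.069, adjusted p = 2.57e-06), Dbp rose by 0.62 and Tef by 0.61. The arrays of the 2 groups did not overlap in any of these 4, nor did they in 59.8% of all genes. Hlf (0.30), Arntl (0.24) and Per1 (0.21) passed with small changes, and these 3 calls were the ones lost without those arrays. Bhlhe40, a repressor of the clock, fell from 10.83 and 10.51 to 10.33 and 10.10 (-0.45, SE 0.090, adjusted p = 0.0013), and the kinase gene Csnk1e fell by 0.29. The remaining 10, Clock, Per2, Per3, Cry1, Nr1d2, Rora, Nfil3, Bhlhe41, Ciart and Csnk1d, lay between -0.15 and 0.21 and did not pass.

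The clock response was lower in HO1-/- than in HO1+/+ cells for 4 of the 19 genes, against 7.57% of all genes. These were Nr1d1 (1.33 in HO1+/+, difference -0.59, SE 0.097, adjusted p = 0.00096), Cry2 (difference -0.32, adjusted p = 0.0433), Clock (-0.31) and Bhlhe40 (-0.59). Without either HO1-/- scrambled array, HO1+/+ HO2 shRNA replicate 1 or HO1-/- HO2 shRNA replicate 2 the count was 2. Ciart, at 0.00 in HO1-/- and 0.46 in HO1+/+ cells, did not differ past the threshold. A single collection time cannot separate a change of level from a change of phase. The E-box CACGTG, which reads the same on both strands, lay in the windows of 5 of 16 clock genes (31.2%), namely Per1, Cry1, Tef, Bhlhe41 and Ciart, and in 9.52% of all genes with a window. Tef, at chr15:81802423-81802722 on the plus strand, and Per1, at chr11:69098699-69098998 on the plus strand, are shown as the pair of these that rose, with the E-box in capitals.
Tef: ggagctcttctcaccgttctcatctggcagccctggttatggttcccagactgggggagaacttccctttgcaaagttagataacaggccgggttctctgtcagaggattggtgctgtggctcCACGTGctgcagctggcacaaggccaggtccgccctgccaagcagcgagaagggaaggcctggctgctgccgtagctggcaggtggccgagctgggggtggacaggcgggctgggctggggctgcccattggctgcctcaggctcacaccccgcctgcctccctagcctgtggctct
Per1: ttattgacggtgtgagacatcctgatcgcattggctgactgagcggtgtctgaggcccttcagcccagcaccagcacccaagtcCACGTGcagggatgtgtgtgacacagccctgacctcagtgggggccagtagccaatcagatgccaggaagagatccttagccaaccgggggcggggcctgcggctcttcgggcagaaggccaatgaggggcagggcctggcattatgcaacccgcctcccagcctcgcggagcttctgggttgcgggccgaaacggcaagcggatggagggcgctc
Nr1d1, Cry2 and Dbp rose as much or more without this exact element in their windows.

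**Figure D4:**
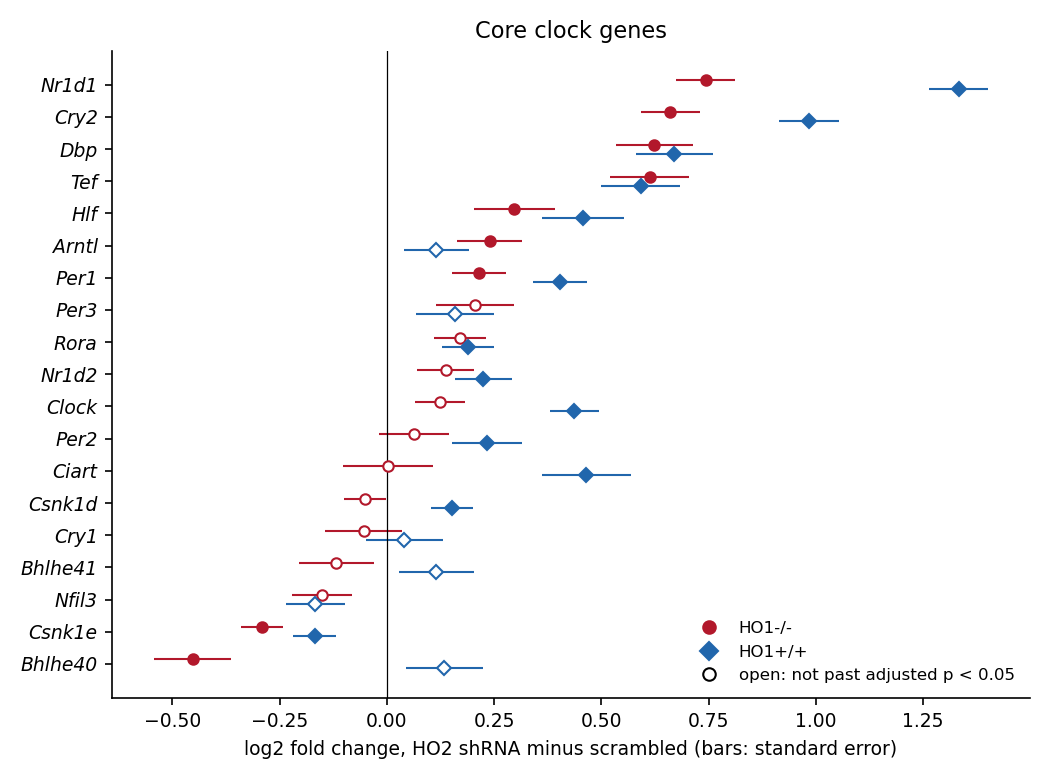
Log2 fold change of HO2 shRNA minus scrambled (x axis, bars are standard errors of the fit) for 19 core clock genes (y axis) in HO1-/- (circles) and HO1+/+ cells (diamonds); filled symbols passed adjusted p 0.05. Nr1d1, Cry2, Dbp and Tef lie highest in HO1-/- cells, and Nr1d1 lies at 0.74 in HO1-/- against 1.33 in HO1+/+ cells.

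Markers of non-parenchymal cells did not move as a block. Of the 16 Kupffer cell and macrophage markers 4 rose and 6 fell in HO1-/- cells (median 0.08), against 10.2% and 12.8% of all genes. Adgre1, which encodes the macrophage antigen F4/80, read 11.19 and 11.21 on the scrambled and 9.80 and 10.02 on the HO2 shRNA arrays (-1.29, SE 0.10, adjusted p = 1.18e-07). Ms4a7 fell by 2.34, Itgam (CD11b) by 1.01 and the endotoxin co-receptor Cd14 by 0.77. Vsig4, a complement receptor of tissue macrophages, rose from 6.24 and 6.47 to 7.69 and 7.71 (1.35, SE 0.13, adjusted p = 9.85e-07), and the C1q chains C1qa, C1qb and C1qc rose by 0.64, 0.40 and 0.81. Lyz2 and Cd68, which mark macrophages broadly, gave 0.13 and 0.04 and did not pass. In HO1+/+ cells 0 of the 16 rose and 2 fell, against 16.5% and 16.7% of all genes. In the test of the difference 5 were higher and 4 lower in HO1-/- cells, against 4.67% and 7.57% of all genes. The count of 5 went to 2 without either HO1-/- scrambled array, HO1+/+ HO2 shRNA replicate 1 or HO1-/- HO2 shRNA replicate 1. On all 4 HO1+/+ arrays 5 of the 16, Adgre1 and Ms4a7 among them, read below 6.77, where a fall could hardly show, so for Adgre1 and Ms4a7 the difference between the genotypes restates the fall in HO1-/- cells.

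Stellate cell and fibroblast markers counted 9 higher and 1 lower of 15 (median 0.30), or 4 higher without HO1-/- scrambled replicate 1 or HO1-/- HO2 shRNA replicate 1. The matrix protein gene Sparc read 10.60 and 10.52 on the scrambled and 11.32 and 11.28 on the HO2 shRNA arrays (0.74, SE 0.052, adjusted p = 3.42e-08), smooth muscle actin (Acta2) rose by 1.06 and Reln by 1.29, and decorin (Dcn) fell by 1.23. Of 12 sinusoidal endothelial markers 5 rose, led by Cdh5 (0.94) and Lyve1 (0.78), and Fcgr2b fell by 0.58; without HO1-/- scrambled replicate 1 or HO1-/- HO2 shRNA replicate 2, 3 rose. Cholangiocyte markers were split, with Krt7 at 1.14 and Cldn4 at 0.52 higher, Sox9 at -0.66 and Muc1 at -0.29 lower, the last of which did not pass without any 1 of the 4 HO1-/- arrays, and Krt19 not past the test at 0.09. Of 23 genes of dedifferentiation and the cytoskeleton 4 rose and 4 fell: Cd44 fell by 0.78 and Tgfb1 by 0.49, while vimentin (Vim) rose by 0.12. Those that rose were reduced to 1 without HO1-/- scrambled replicate 2 or either HO1-/- HO2 shRNA array, and those that fell to 2 without HO1-/- HO2 shRNA replicate 2. Lymphocyte (0 of 9), monocyte (0 of 3) and erythroid markers (0 of 2) held no gene past the adjusted threshold in limma. An unadjusted p under 0.05 was found for 0 of these 14, against 31.7% of all genes. Of them, 6 of 9 lymphocyte and 2 of 3 monocyte markers read below 6.77 on all 4 HO1-/- arrays, where a change could hardly show. Among 10 neutrophil markers S100a8 fell by 0.39 and S100a9 rose by 0.34, and neither passed without HO1-/- HO2 shRNA replicate 2. The call of S100a9 was also lost without HO1-/- scrambled replicate 1 or HO1-/- HO2 shRNA replicate 1. Genes of the RNA interference machinery, which processes hairpins in all 4 groups, counted 3 higher and 3 lower of 11, with Ago2 at 0.47 and Tarbp2 at -0.52.

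Set against the same hairpin in HO1+/+ cells, most large changes kept their direction. The fold changes of the 2 genotypes come from separate arrays. Calls in the 2 genotypes are not independent, because the spread of each gene was pooled over the arrays of all 4 groups. Log2 fold changes of the 2 genotypes correlated at r = 0.67 across genes, which are not independent replicates. Of the 298 genes changed at least 2-fold in HO1-/- cells, 286 had the same sign in HO1+/+ cells and 267 passed there in the same direction. Over all genes tested, 33.2% passed in HO1+/+ cells in either direction. For 139 of the 298 the difference between the genotypes passed the test, against 12.2% of all genes. The 298 were chosen by their response in HO1-/- cells, which enters that difference, so the choice itself raises the count. Over all calls, 2931 genes passed in the same direction in both genotypes, which is 63.9% of those that passed in HO1-/- and 44.3% of those that passed in HO1+/+ cells. A further 169 passed in opposite directions, a selection that by itself implies a difference: 62 rose in HO1-/- and fell in HO1+/+ cells, and 107 did the reverse. Arg1 was the widest of these, read at 11.39 and 11.19 with the scrambled and 9.80 and 9.81 with the HO2 hairpin in HO1-/- cells, against 7.73 and 7.30 and then 9.14 and 9.05 in HO1+/+ cells (difference -3.06, SE 0.16, adjusted p = 1.21e-08). Of the 1487 genes that passed in HO1-/- but not in HO1+/+ cells, 492 passed the test of the difference and 995 did not. Choosing genes by a call in only 1 genotype also raises the count of 492. The size of the set that differed depended on the arrays used: 1301 genes without HO1+/+ HO2 shRNA replicate 1 and 4744 without HO1+/+ scrambled replicate 2.

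**Figure D5:**
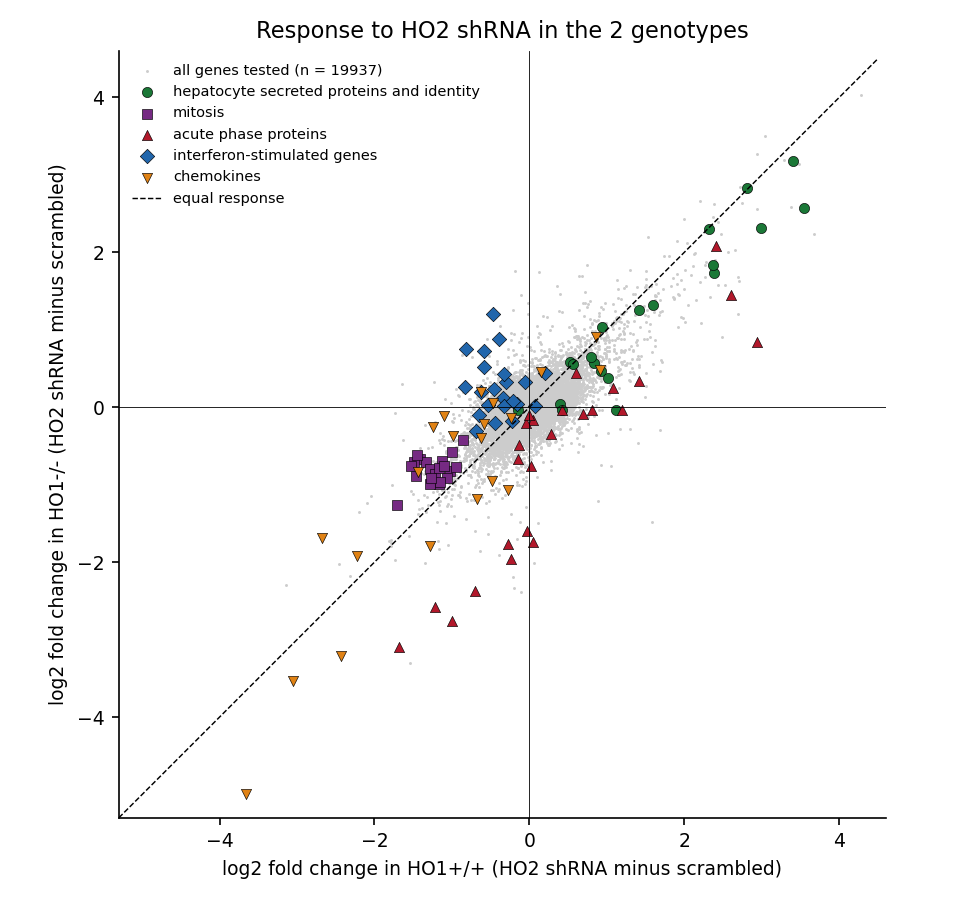
Log2 fold change of HO2 shRNA minus scrambled in HO1+/+ cells (x axis) against HO1-/- cells (y axis) for 19937 genes (grey) with 5 gene lists marked; the dashed line is an equal response. Most acute phase proteins lie below the line and most interferon-stimulated genes above it, mitosis genes lie in the lower left above the line, and hepatocyte genes run along or below the line to 3.17 in HO1-/- cells.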

How the data were processed

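Values were taken from the deposited table of log2 signals, 1 column for each of 8 whole-transcript arrays, which the authors made by RMA with the affy package in R 2.15.0, per the submitters' processing notes; RMA corrects background, equalises the distribution of signal between arrays and summarises probes on the log2 scale. Of 34760 probe sets, 21640 had 1 gene symbol, 1321 several and 11799 none. The brightest probe set stood for each of 19937 genes, of which 19855 were matched to RefSeq.

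The 4 groups of 2 arrays were fitted together in limma 3.58.1 (R 4.3.3) with a mean-dependent prior variance, giving 4 residual degrees of freedom and 11.2 prior ones. HO2 shRNA was contrasted with the scrambled hairpin within each genotype, and these contrasts with each other. P-values were adjusted over all genes by the Benjamini-Hochberg method, with a threshold of 0.05, and every adjusted p in the text comes from this fit. All log2 fold changes are HO2 shRNA minus scrambled. The levels of different genes come from different probe sets and were not compared. The fit was tested on simulated data.

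The members and gene lists were chosen with earlier results of these data known. Named genes were Hmox1, Hmox2, the core clock, the 12 largest rises and falls, the 4 of each list with the smallest p, and the 10 largest differences between genotypes in each direction and among genes of opposite response; further list members are examples chosen after their values were seen. Same-numbered replicates of the 2 HO1-/- groups did not deviate together (r = 0.004), so the number was not used as a block. Alternatives were other probe set rules, scalings, filters and variance models, and leaving out each array. Some genes were not analysed here.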

Additional observations from a re-analysis of the deposited data

Results flagged for a closer look

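The response to HO2 shRNA differed between HO1-/- and HO1+/+ cells by at least 1 log2 unit, past the adjusted threshold in limma, in 104 genes, of which 52 are named by the naming rule or stand on a gene list. That size was chosen after seeing the data. The values of these 52 are the response in HO1-/- minus that in HO1+/+ cells, and no explanation was tested. Of the 52, 12 read below 6.77 log2 units on all 4 HO1+/+ arrays. For those of the 12 with a lower response, namely Ccl12, Ms4a7, Saa1, Il10, Orm3 and Adgre1, a fall could hardly show in HO1+/+ cells, and the difference restates the fall in HO1-/- cells.

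Genes with a lower response in HO1-/- cells included the arginase gene Arg1 (-3.06) and the plasma protein and acute phase genes Lrg1 (-2.10), Fgg (-2.10), Saa4 (-1.79), Orm2 (-1.76), Orm1 (-1.72), Saa2 (-1.66), Saa1 (-1.58), Orm3 (-1.49), Saa3 (-1.41), Steap4 (-1.37), Apcs (-1.24), Itih4 (-1.16), F9 (-1.14) and Fga (-1.08). Among genes of leukocytes were Ms4a7 (-2.14), Adgre1 (-1.25) and Fcgr2b (-1.21), and among secreted signals Ccl12 (-2.27), Il10 (-1.54) and Cxcl5 (-1.34). Fatty acid genes were Cd36 (-1.85), Cyp4a12a (-1.81), Cyp4a12b (-1.67), Cyp4a10 (-1.49), Cyp4a31 (-1.44) and Ehhadh (-1.07), of which the Cyp4a12 pair is near-identical. The others were Prelp (-2.07), Rnase2a (-1.98), Vnn3 (-1.81), H2-M2 (-1.76) and Nrg4 (-1.44).

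Genes with a higher response in HO1-/- cells included the interferon-stimulated genes Ifi44l (1.95), Ifit3 (1.67), Ifi203 (1.65), Oasl2 (1.57), Ifit3b (1.55), Rsad2 (1.32), Ifit1 (1.28), Mx2 (1.11) and Gbp3 (1.09). Cd74 (1.62), Clec7a (1.57), Slfn1 (1.47), P2ry13 (1.43), Vsig4 (1.37), Slfn5 (1.25), H2-Aa (1.22), Slfn8 (1.19) and Ms4a4c (1.19) are expressed in leukocytes, and the others were Klk1b11 (1.43) and Cyp7a1 (1.06).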

How the results depend on the processing

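For HO2 shRNA in HO1-/- cells, leaving out 1 array gave 3170 to 5273 genes past the threshold, 1343 to 2374 higher and 1681 to 2899 lower; in HO1+/+ cells 4543 to 8151, 2417 to 3479 higher and 2126 to 4672 lower; for the difference between genotypes 1301 to 4744, 395 to 2494 higher and 847 to 2250 lower. A 2-fold minimum left 298 genes in HO1-/- cells, 181 higher and 117 lower. For the difference, a prior variance without trend gave 1359 genes (586 higher, 773 lower) and an adjusted p of 0.01 gave 1065 (342 higher, 723 lower). The cause was not tested. Centring arrays on their medians moved the share of higher calls in HO1+/+ cells from 49.7% to 62.9%, against 44.3% and 47.1% in HO1-/- cells. With the replicate number as a block, which does not pair these samples, 4491 genes passed in HO1-/- cells (1973 higher, 2518 lower), 6431 in HO1+/+ cells (3266 higher, 3165 lower) and 2327 for the difference (839 higher, 1488 lower). Pdia4, at -0.13, gave 0.0718 when its probe sets were averaged. Of 362 followed genes past the threshold in HO1-/- cells, 282 kept call and sign when arrays were centred, normalised once more, fitted without the HO1+/+ arrays, with probe sets averaged, with the block, or without each HO1-/- array; single genes were not followed under the other alternatives.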

Other observations

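Further gene groups were looked at after their values had been seen, so their counts carry no weight as tests of the groups; the values are relative to the scrambled hairpin in HO1-/- cells. Of 8 MHC class II genes, which present antigens, 2 rose: Cd74, the invariant chain, read 7.72 and 7.64 on the scrambled and 9.35 and 9.49 on the HO2 shRNA arrays (1.75), and H2-Aa rose by 1.20. H2-Ab1, at 0.03, and the class II activator Ciita, at 0.24, did not pass. Of 8 Schlafen genes, Slfn1 rose by 1.26 and Slfn5 by 0.69, and 4 fell, or 1 without HO1-/- HO2 shRNA replicate 2.

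Of 5 Cyp4a genes, which encode fatty acid omega-hydroxylases, 3 rose and 2 fell in HO1-/- cells, while all 5 rose in HO1+/+ cells. Cyp4a31 rose by 2.23 in HO1-/- and 3.67 in HO1+/+ cells. The near-identical Cyp4a12a and Cyp4a12b fell by 0.76 and 0.75 in HO1-/- cells. Of 16 genes of alternative macrophage activation 4 rose and 6 fell: Clec7a rose by 1.45 and Trem2 by 0.59, and Il10 fell by 1.70.

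Of 13120 probe sets without a single gene symbol, 83 (0.633%) passed the threshold in HO1-/- cells, 602 (4.59%) in HO1+/+ cells and 19 (0.145%) for the difference, in a fit of their own chosen after seeing the data.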
